A study of Mus musculus with 14 samples.

Results

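The RGK GTPases Rrad, Gem, Rem1 and Rem2 and the L-type calcium channel subunits Cacna1s, Cacnb1, Cacng1 and Cacna2d1 were followed in skeletal muscle of mice with a c-Myc transgene in their endothelial cells (EC-Myc OE) and of control littermates (CT). These 8 genes, 4 of each kind, were taken by name from the 54532 genes counted. The list was chosen by measured values of these same libraries, because Rrad was selected on its measured level in EC-Myc OE on western diet, for which the study names it, and the other genes were added as its family and the channel that the family acts on. All values of the members are therefore given as a description, and no comparison that holds EC-Myc OE on western diet is free of that selection for Rrad. RGK proteins are small Ras-related GTP-binding proteins that bind the beta subunit of high-voltage-activated calcium channels and lower the calcium current. Rrad, also called Rad, takes its name from its association with diabetes, having been found through its level in muscle of diabetic patients. In skeletal muscle the L-type channel sits in the transverse tubules, where its pore Cacna1s senses the voltage of the membrane and opens the calcium release channel Ryr1 of the sarcoplasmic reticulum.

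RNA-seq was carried out on polyadenylated RNA of soleus and gastrocnemius muscle, in 14 libraries of male FVB/N mice, and the labels do not say which muscle a library holds. The human c-Myc transgene of EC-Myc OE mice, Tet-O-Myc, answers to tetracycline control and lies on the Y chromosome. These mice have it together with the transactivator tTA under the endothelial Cdh5 promoter, whereas their CT littermates carry Tet-O-Myc without tTA. Breeding took place on doxycycline, which keeps the transgene off, and doxycycline was withdrawn between 4 and 6 weeks of age. Mice then received control diet (CTD) or high-fat western diet (WD) for 20 weeks by the labels, and the study's text gives another duration in a different place and other group sizes. By the labels, 3 libraries were CT-CTD, 3 were CT-WD, 4 were OE-CTD and 4 were OE-WD, where OE stands for EC-Myc OE and a number after a group is its replicate. The sample descriptions share a number among OE-CTD 1 to 3 and another among OE-WD 1 to 4, with no statement of what it means, so the p-values measure the spread between these libraries, which may not be that between independent animals. The transgene was driven in endothelial cells, while the RNA came from whole muscle, in which fewer cells of a type and less RNA per cell cannot be told apart.

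Summed counts per library were between 21833839 and 28519159. Libraries OE-CTD 4 and OE-WD 4 stood apart from the others of their groups. Their mitochondrial genes took 14.9% and 14.5% of the counts, against 9.66% to 12.8% in the other 12 libraries, and their 10 most abundant genes took 29.2% and 29.5%, against 24.3% to 26.9%. The chi-square per degree of freedom was between 35.6 and 41.2 for OE-CTD 4 against OE-CTD 1 to 3, and between 7.50 and 10.2 among those 3 libraries. For OE-WD 4 it was between 37.2 and 40.4 against OE-WD 1 to 3, and between 8.17 and 14.5 among those 3. Pairs of CT libraries of the same group lay between 16.15 (CT-CTD 2 and CT-CTD 3) and 48.1 (CT-WD 1 and CT-WD 3). The distances of OE-CTD 4 and OE-WD 4 were therefore within the range of the CT pairs, and OE-CTD 1 to 3 and OE-WD 1 to 3 were closer than any CT pair. OE-CTD 4 is the OE-CTD library without the shared sample number, while OE-WD 4 bears the number of its group. Values without OE-CTD 4 or OE-WD 4 are given for several results of the members that moved with these libraries.

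All 8 members are protein coding genes of the mouse genome build GRCm38. Rrad (ENSMUSG00000031880) lies on chromosome 8 from 104628070 to 104631327 on the minus strand, Gem (ENSMUSG00000028214) on chromosome 4 from 11704457 to 11714752, Rem1 (ENSMUSG00000000359) on chromosome 2 from 152626951 to 152635198 and Rem2 (ENSMUSG00000022176) on chromosome 14 from 54476100 to 54480431, these last on the plus strand. Cacna1s (ENSMUSG00000026407) lies on chromosome 1 from 136052750 to 136119822 and Cacna2d1 (ENSMUSG00000040118) on chromosome 5 from 15934691 to 16374511, both on the plus strand. Cacnb1 (ENSMUSG00000020882, 98001508 to 98023034) and Cacng1 (ENSMUSG00000020722, 107703218 to 107716522) are both on the minus strand of chromosome 11. The strand setting of the counting is not given in the sources used here, so reads of a gene and of an antisense partner cannot be told apart. Rrad overlaps the antisense gene Gm33023, which had 56 counts in all libraries together against 5100 for Rrad. Cacna1s overlaps Gm37759 on the other strand (428 counts against 311746) and Gm37014 on its own strand (25 counts). Cacnb1 overlaps Gm11629 (10 counts against 63075), and Cacna2d1 overlaps Gm43490, Gm43000 and Gm43491 with 2, 2 and 0 counts against 108939. Gem, Rem1, Rem2 and Cacng1 overlap no other listed gene.

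A gene was called when its fold change was over 1.5 at an adjusted p-value under 0.05 in edgeR's quasi-likelihood test, which kept 15458 genes including 7 of the 8 members. Rem2 did not pass the filter on low counts. The unadjusted level, wherever it is named, asks for the same fold change over 1.5 with an unadjusted p-value under 0.05. Between CT-WD and CT-CTD, edgeR called 0 of the 7 members, where 0% of all genes tested were called, and 0 at the unadjusted level, where 3.05% of all genes passed. Between OE-WD and OE-CTD it called 0 members (background 0.00647%, from which nothing is read because Rrad was selected on its level in OE-WD) and 0 at the unadjusted level (background 1.37%). OE-WD against CT-WD gave 0 members (background 0.563%, from which nothing is read for the same reason) and 0 at the unadjusted level (background 5.74%). Comparing OE-CTD with CT-CTD gave 0 members (background 1.91%) and 1 at the unadjusted level, Gem (background 7.12%), while Cacng1 had an unadjusted p-value under 0.05 with a smaller fold. For the diet by genotype interaction the count was 0 (background 0%), and 0 at the unadjusted level (background 2.7%). DESeq2 in the same model of 14 libraries also called 0 members in each of the 5 comparisons. DESeq2 on 2 groups alone called 1 member between OE-WD and OE-CTD, Rrad, and 0 in the other comparisons of groups. Over all genes, these fits of DESeq2 had 10 genes called in OE-WD against OE-CTD, 22 genes called in CT-WD against CT-CTD, 192 genes called in OE-WD against CT-WD and 634 genes called in OE-CTD against CT-CTD.

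Rrad was the RGK gene with the highest mean level and, in the CT libraries, the widest spread. Its level, in TMM-normalized CPM (counts scaled to 1e6 per library), was 3.36, 29.6 and 11.4 CPM in the CT-CTD libraries and 22.9, 5.27 and 19.4 CPM in the CT-WD libraries (replicates 1 to 3). In EC-Myc OE it was 17.7, 18.9, 14.6 and 17.2 CPM in the OE-CTD libraries and 12.6, 9.99, 12.5 and 8.56 CPM in the OE-WD libraries (replicates 1 to 4). The CT libraries held both the lowest and the highest values of the series, and the range of each CT group contained both OE groups. The highest library was 8.8 times the lowest in CT-CTD and 4.35 times in CT-WD, but 1.29 times in OE-CTD and 1.47 times in OE-WD. On the log2 CPM scale the standard deviation within groups was 1.37 in CT, higher than for 99.2% of the genes tested, and 0.22 in OE, near the median of the genes tested (percentile 52.2). The difference in spread between the genotypes was not tested.

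The OE groups did not overlap for Rrad, all 4 OE-WD libraries being below all 4 OE-CTD libraries. These values may be among those that chose Rrad, so the separation describes them and supports nothing further. Group means were 10.9 ± 1.98 CPM in OE-WD and 17.1 ± 1.81 CPM in OE-CTD (SD, n = 4 each), and 15.9 ± 9.34 CPM in CT-WD and 14.8 ± 13.4 CPM in CT-CTD (SD, n = 3 each). The log2 fold change of OE-WD against OE-CTD was -0.65 with a standard error of 0.47 in the model of all 14 libraries (adjusted p = 1). The standard error was 0.14 when edgeR was fitted on the OE groups alone, with a log2 fold change of -0.66 and an adjusted p of 0.603. DESeq2 on the OE groups alone gave -0.65 and called it (adjusted p = 0.0271), and over all alternatives the adjusted p ran from 0.0271 to 1. Compared with CT-WD, the OE-WD libraries had a log2 fold change of -0.55 ± 0.50 (SE), with -0.96 when CT-WD 2 was left out and -0.18 when CT-WD 1 was left out. The log2 fold change was 0.11 ± 0.54 for CT-WD against CT-CTD and 0.22 ± 0.50 for OE-CTD against CT-CTD, both smaller than their standard errors. Each of these turned negative without CT-CTD 1 (-0.37 and -0.26) and exceeded 1 without CT-CTD 2 (1.11 and 1.21), so that single CT libraries set their sign. The difference between the diet effects of the genotypes was -0.76 ± 0.71, and it ran from -1.76 without CT-CTD 2 to -0.28 without CT-CTD 1.

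Gem, a calmodulin-binding member of the family whose transcript is induced by mitogens in other cells, was at 6.41, 4.48 and 4.45 CPM in the CT-CTD libraries and 7.19, 5.27 and 9.34 CPM in the CT-WD libraries (replicates 1 to 3). It was at 7.63, 8.71, 11.2 and 4.95 CPM in the OE-CTD libraries and 6.03, 10.2, 9.15 and 6.11 CPM in the OE-WD libraries (replicates 1 to 4). CT-CTD held the lowest values, and it overlapped OE-CTD through OE-CTD 4 and overlapped the other groups as well. The log2 fold change was 0.67 ± 0.27 (SE) for OE-CTD against CT-CTD (unadjusted p = 0.0265, adjusted p = 0.237 in edgeR), and 0.51 ± 0.29 for CT-WD against CT-CTD. In the OE-WD libraries Gem stood at -0.05 ± 0.25 against OE-CTD and at 0.12 ± 0.27 against CT-WD, and the interaction was -0.56 ± 0.38. As single libraries were left out, OE-CTD against CT-CTD ran from 0.48 (without OE-CTD 3, under the 1.5-fold limit) to 0.86, CT-WD against CT-CTD from 0.29 to 0.69 and the interaction from -0.75 to -0.34. The signs of the other 2 turned with single libraries, with -0.22 without OE-CTD 4 and 0.15 without OE-CTD 3 for OE-WD against OE-CTD, and -0.07 without CT-WD 2 and 0.33 without CT-WD 3 for OE-WD against CT-WD.

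Rem1, a further channel-inhibiting member, was at 4.03, 5.02 and 5.40 CPM in the CT-CTD libraries and 4.70, 5.46 and 5.25 CPM in the CT-WD libraries (replicates 1 to 3). Its values were 5.75, 6.37, 6.39 and 4.44 CPM in the OE-CTD libraries and 5.10, 6.35, 7.74 and 4.90 CPM in the OE-WD libraries (replicates 1 to 4). All groups overlapped, and the highest 5 libraries were all from EC-Myc OE. Its log2 fold changes were 0.26 ± 0.18 (SE) for OE-CTD against CT-CTD, 0.23 ± 0.18 for OE-WD against CT-WD, 0.09 ± 0.20 for CT-WD against CT-CTD, 0.07 ± 0.17 for OE-WD against OE-CTD and -0.03 ± 0.26 for the interaction. As single libraries were left out, OE-CTD against CT-CTD ran from 0.14 (without CT-CTD 1) to 0.36 (without OE-CTD 4), and OE-WD against CT-WD from 0.09 (without OE-WD 3) to 0.32 (without OE-WD 4). The other 3 turned sign, to -0.03 without CT-CTD 1 for CT-WD against CT-CTD, to -0.08 without OE-WD 3 for OE-WD against OE-CTD and to 0.09 without CT-CTD 1 for the interaction.

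Rem2, the member of the family known mainly from neurons, had 0 counts in all 14 libraries. A count of 0 leaves room for up to 3 counts, which at these depths are between 0.0989 and 0.153 CPM, counting error only. Its transcript was not detectable at this depth, and no fold change was computed.

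**Figure D1:**
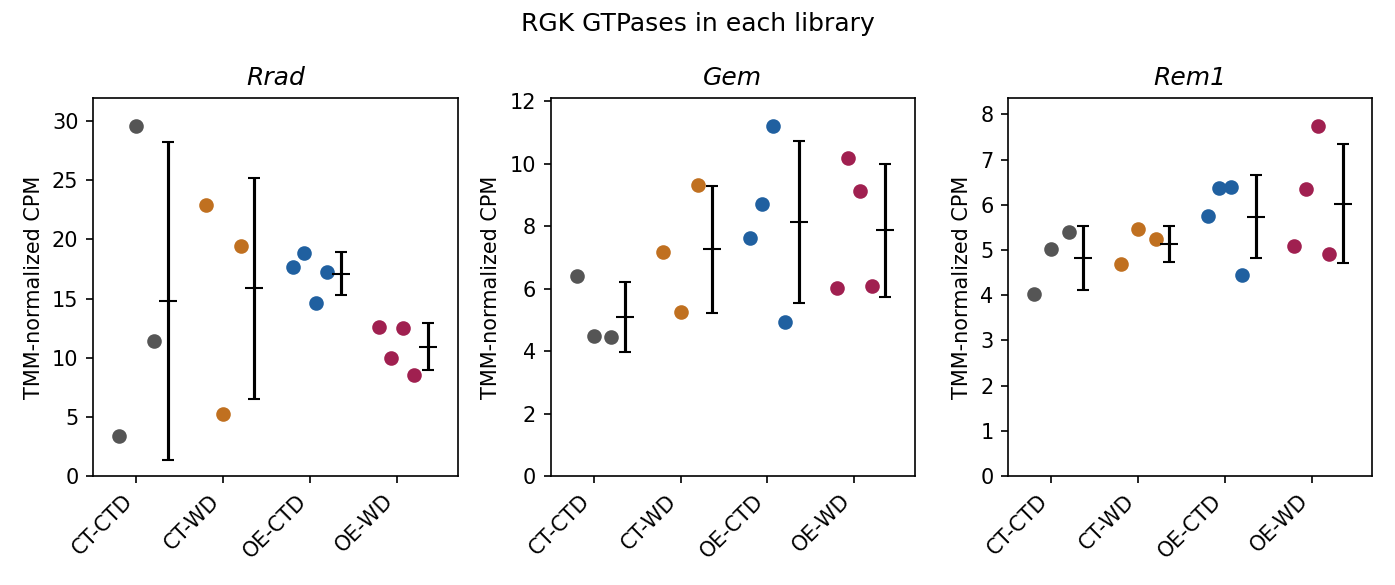
TMM-normalized CPM (vertical axis) of Rrad, Gem and Rem1 in each library by group (horizontal axis), with 1 point per library and the group mean ± SD beside the points (n = 3 for CT groups, n = 4 for OE groups). Rrad runs from 3.36 to 29.6 CPM in CT and from 8.56 to 18.9 CPM in OE, where the diet groups do not overlap.

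Cacna1s, the pore and voltage sensor, was at 845, 862 and 850 CPM in the CT-CTD libraries and at 761, 903 and 836 CPM in the CT-WD libraries (replicates 1 to 3). In EC-Myc OE it was at 763, 804, 769 and 1392 CPM in the OE-CTD libraries and at 864, 836, 849 and 1352 CPM in the OE-WD libraries (replicates 1 to 4). OE-CTD 4 and OE-WD 4 were far above every other library, while the other 12 lay between 761 and 903 CPM with overlapping groups. The log2 fold changes were 0.23 ± 0.20 (SE) for OE-WD against CT-WD, 0.13 ± 0.20 for OE-CTD against CT-CTD, 0.07 ± 0.19 for OE-WD against OE-CTD, -0.03 ± 0.22 for CT-WD against CT-CTD and 0.10 ± 0.29 for the interaction. Without OE-WD 4, OE-WD against CT-WD came to 0.03 and OE-WD against OE-CTD to -0.13. Without OE-CTD 4, OE-CTD against CT-CTD came to -0.13 and OE-WD against OE-CTD to 0.33, so that these libraries set the sign of the OE-CTD comparisons. The interaction came to -0.10 without OE-WD 4 and to 0.36 without OE-CTD 4.

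Cacnb1, the beta subunit that anchors the pore in the triad and that RGK proteins bind, was at 147, 193 and 186 CPM in the CT-CTD libraries and at 141, 193 and 192 CPM in the CT-WD libraries (replicates 1 to 3). Its values were 193, 183, 184 and 216 CPM in the OE-CTD libraries and 172, 167, 168 and 220 CPM in the OE-WD libraries (replicates 1 to 4). CT-CTD 1 and CT-WD 1 were the lowest libraries and OE-CTD 4 and OE-WD 4 the highest, and all groups overlapped. Log2 fold changes lay between -0.10 ± 0.12 (SE) for OE-WD against OE-CTD and 0.15 ± 0.13 for OE-CTD against CT-CTD, with 0.05 ± 0.13 for OE-WD against CT-WD, -0.002 ± 0.14 for CT-WD against CT-CTD and -0.10 ± 0.19 for the interaction. Single libraries set these values, since OE-CTD against CT-CTD came to 0.03 without CT-CTD 1 and OE-WD against CT-WD to -0.09 without CT-WD 1. OE-WD against OE-CTD came to -0.20 without OE-WD 4 and to -0.04 without OE-CTD 4.

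Cacng1, the gamma subunit of the muscle channel, was at 281, 333 and 393 CPM in the CT-CTD libraries and at 284, 336 and 346 CPM in the CT-WD libraries (replicates 1 to 3). It was at 282, 253, 260 and 327 CPM in the OE-CTD libraries and at 281, 271, 295 and 299 CPM in the OE-WD libraries (replicates 1 to 4). The highest 4 CT libraries lay above all OE libraries, and the lowest CT library of each diet lay among the OE libraries, so that the groups overlapped. OE-CTD against CT-CTD had a log2 fold change of -0.26 ± 0.12 (SE, unadjusted p = 0.0428, adjusted p = 0.292 in edgeR), a fold of 1.2, and this came to -0.13 without CT-CTD 3 and to -0.38 without CT-CTD 1. OE-WD against CT-WD stood at -0.17 ± 0.12, and the diet differences were -0.06 ± 0.13 in CT and 0.03 ± 0.11 in EC-Myc OE, with an interaction of 0.09 ± 0.17. Both diet differences and the interaction turned sign with single libraries. Without CT-CTD 3 the diet difference in CT came to 0.07 and the interaction to -0.04. The diet difference in EC-Myc OE came to -0.015 without OE-CTD 2 and to 0.11 without OE-CTD 4.

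Cacna2d1, the alpha2delta subunit, which is carried on the outer face of the membrane and binds gabapentin, was at 321, 377 and 351.03 CPM in the CT-CTD libraries and at 302, 322 and 328 CPM in the CT-WD libraries (replicates 1 to 3). It was at 263, 264, 282 and 368 CPM in the OE-CTD libraries and at 301, 270, 287 and 379 CPM in the OE-WD libraries (replicates 1 to 4). The genotypes overlapped through OE-CTD 4 and OE-WD 4 (368 and 379 CPM). The other OE libraries lay below all CT libraries, by a narrow margin (301 CPM in OE-WD 1 against 302 CPM in CT-WD 1). How many of all genes separate when these libraries are set aside was not counted. The log2 fold change of OE-CTD against CT-CTD was -0.25 ± 0.13 (SE, adjusted p = 0.371 in edgeR) with all libraries and -0.38 ± 0.08 (adjusted p = 0.0233) with OE-CTD 4 and OE-WD 4 left out, which was decided on with the values in view. That difference stayed under the 1.5-fold limit in both, and the adjusted p over all alternatives ran from 0.0233 to 0.69. OE-WD against CT-WD stood at -0.04 ± 0.13, and at -0.15 with both libraries left out (adjusted p = 0.328). It turned to 0.02 without OE-WD 2. The diet differences were -0.14 ± 0.14 in CT (from -0.21 to -0.08 as single libraries were left out) and 0.07 ± 0.12 in EC-Myc OE, and the interaction was 0.21 ± 0.18. Without OE-WD 4 these last 2 came to -0.04 and 0.10, and without OE-CTD 4 to 0.20 and 0.34.

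**Figure D2:**
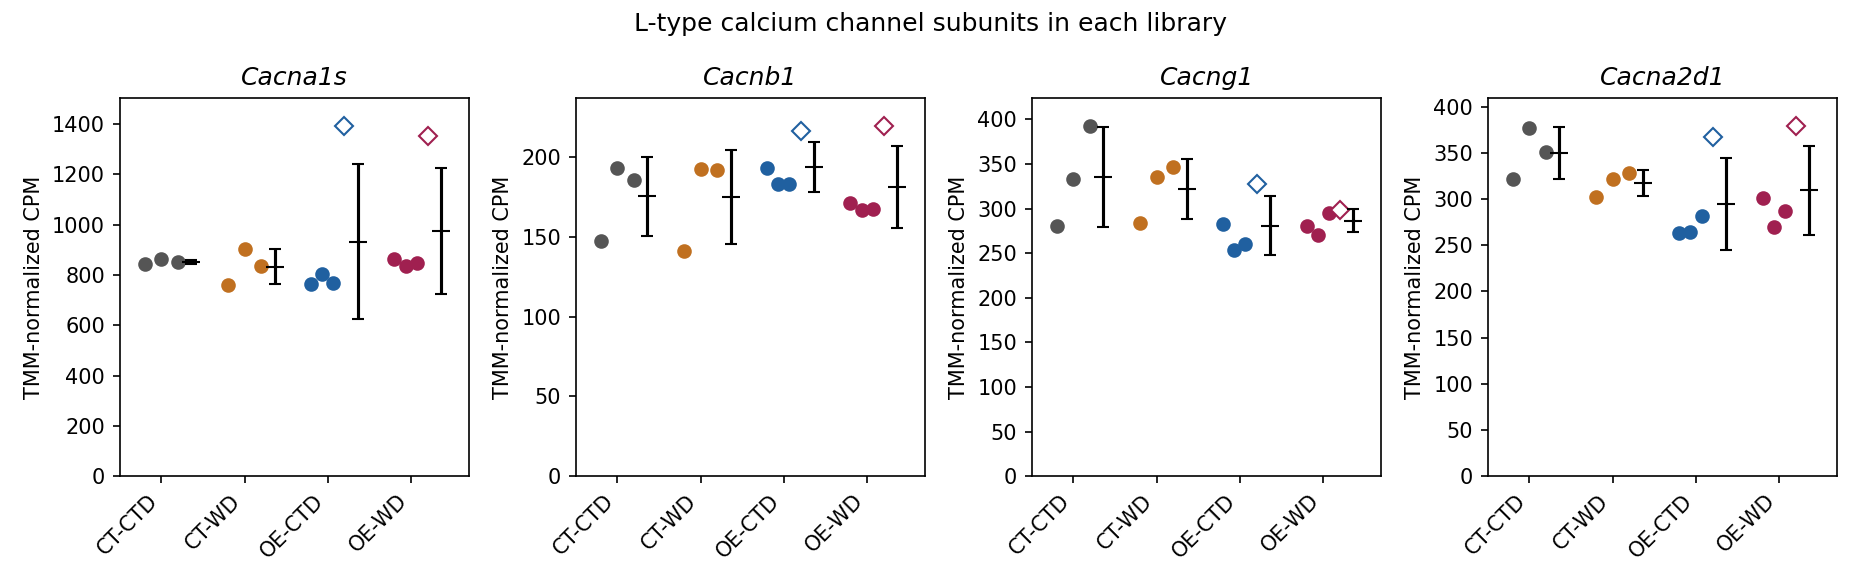
TMM-normalized CPM (vertical axis) of the 4 channel subunits in each library by group (horizontal axis), with 1 symbol per library, open diamonds for OE-CTD 4 and OE-WD 4, and the group mean ± SD beside them (n = 3 for CT groups, n = 4 for OE groups). The open diamonds are the highest OE values of each gene, and for Cacna1s they lie at 1392 and 1352 CPM above 12 libraries between 761 and 903 CPM.

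Levels of different genes were compared in the authors' FPKM, which are scaled to gene length. Among the members the order of mean FPKM over the 14 libraries was Cacng1 (265 ± 34.7, SD), Cacna1s (151 ± 35.2), Cacnb1 (44.1 ± 5.72), Cacna2d1 (27.8 ± 3.8), Rrad (10.1 ± 4.87), Gem (3.75 ± 1.13) and Rem1 (2.78 ± 0.481), with Rem2 at 0 FPKM. Cacng1 exceeded Cacna1s in FPKM in 14 of 14 libraries, although their ranges (220 to 342 and 126 to 236 FPKM) overlapped, and the ratio within a library was between 1.16 and 2.42. The FPKM ranges of Cacna1s and Cacnb1 did not overlap, nor did those of Cacna2d1 and Rrad, so that every channel member lay above every RGK gene in every library. Cacnb1 exceeded Cacna2d1 in FPKM in 14 of 14 libraries, although their ranges (33.7 to 53.9 and 23.0 to 34.0 FPKM) overlapped. Rrad exceeded Gem in FPKM in 13 libraries and Gem exceeded Rem1 in 11, with overlapping ranges, so these neighbours were not separated beyond their spread. The library in which Rrad was below Gem was CT-CTD 1, at 2.32 against 3.31 FPKM.

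The level of the detected members by group was read on the same scale. Rrad was at 10.3 ± 9.4 FPKM in CT-CTD, 10.96 ± 6.41 in CT-WD, 11.9 ± 1.25 in OE-CTD and 7.58 ± 1.32 in OE-WD (SD, n = 3, 3, 4 and 4). Gem was at 2.65 ± 0.571, 3.77 ± 1.06, 4.21 ± 1.32 and 4.10 ± 1.09 FPKM in the same order of groups, and Rem1 at 2.44 ± 0.361, 2.60 ± 0.22, 2.90 ± 0.438 and 3.06 ± 0.649 FPKM. Rem1 was above Gem in FPKM in 3 libraries, CT-CTD 2, CT-CTD 3 and CT-WD 2. Cacna1s was at 142 ± 2.46, 139 ± 12.9, 156 ± 53.4 and 163 ± 44.1 FPKM in that order, and OE-CTD 4 and OE-WD 4 hold the highest value of the OE groups. Cacng1 was at 293 ± 48.7, 282 ± 31.4, 246 ± 31.8 and 251 ± 12.8 FPKM, Cacnb1 at 42.3 ± 6.13, 42.3 ± 7.46, 46.8 ± 4.26 and 43.9 ± 6.67 FPKM, and Cacna2d1 at 30.8 ± 2.67, 27.9 ± 1.43, 25.9 ± 4.7 and 27.3 ± 4.54 FPKM in that order of groups.

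Within each subunit family the skeletal muscle member was far above its relatives in FPKM. Of 10 pore genes, 5 had a mean of at least 0.1 FPKM, and Cacna1s was at least 118 times the next, Cacna1a (0.883 FPKM, the P/Q-type pore of nerve terminals), in every library. Below it lay the T-type pores Cacna1h (0.42 FPKM) and Cacna1g (0.374 FPKM), each higher in 7 of 14 libraries, and the cardiac and vascular L-type pore Cacna1c (0.259 FPKM). Of 4 beta genes, Cacnb1 was at least 29.4 times Cacnb3 (1.02 FPKM), and Cacnb4 and Cacnb2 were under 0.1 FPKM. Of 4 alpha2delta genes, Cacna2d1 was at least 18.8 times Cacna2d4 (0.655 FPKM), which exceeded Cacna2d3 (0.175 FPKM) in 14 libraries. Among 8 gamma genes Cacng1 was between 4.55 and 7.13 times Cacng6 (48.8 FPKM), followed by Cacng7 (2.75 FPKM), while Cacng2, Cacng3 and Cacng8 had 0 counts in all 14 libraries.

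**Figure D3:**
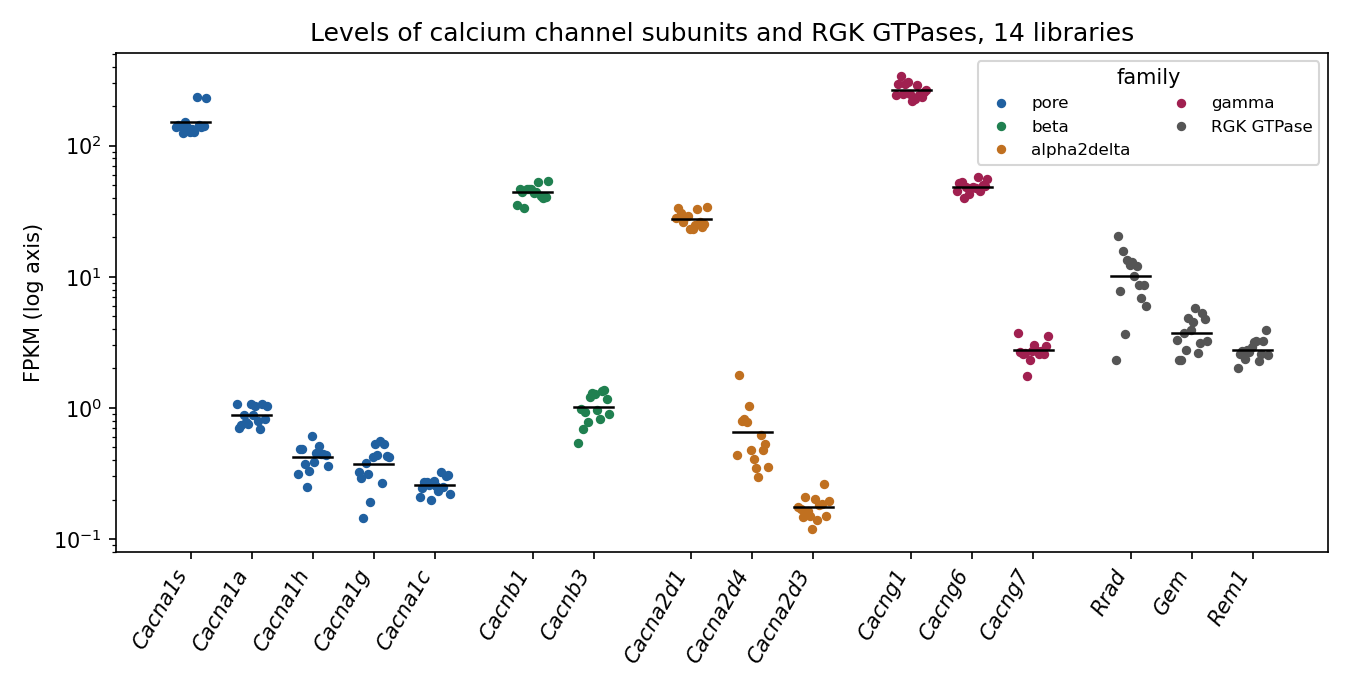
FPKM (vertical log axis) of every calcium channel subunit with a mean of at least 0.1 FPKM and of the 3 detected RGK GTPases (horizontal axis, by family), with 1 point per library (14 libraries) and a line at the mean. Cacng1 and Cacna1s lie above 100 FPKM, and the pores other than Cacna1s lie near or below 1 FPKM.

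The members were also compared in how they varied within groups, as correlations of log2 CPM after the group means were removed, over 14 libraries and 21 pairs, with exact permutation of the libraries within groups (20736 permutations, two-sided) and Benjamini-Hochberg adjustment over the pairs. Of the 6 pairs of channel subunits 4 passed an adjusted p of 0.05, and 0 of the other pairs did. The permutations moved libraries within each group on its own and did not keep CT libraries of the same number together. Cacna1s and Cacng1 (r = 0.542, exact permutation, adjusted p = 0.062) and Cacng1 and Cacna2d1 (r = 0.616, adjusted p = 0.0567) did not pass, with r = 0.36 and 0.527 without OE-CTD 4 and OE-WD 4. Cacna1s and Cacna2d1 had r = 0.927 (permutation p = 0.00468, adjusted 0.0248) and Spearman coefficient = 0.864 (permutation p = 0.00203, adjusted 0.0155). That relation rests on OE-CTD 4 and OE-WD 4, the libraries farthest from the median of Cacna1s, and without them r was 0.402. Cacnb1 and Cacna2d1 had r = 0.763 (permutation p = 0.00198, adjusted 0.0248) and Spearman coefficient = 0.815 (permutation p = 0.00125, adjusted 0.0155), with r = 0.743 without CT-WD 1 and OE-WD 4, the libraries farthest from the median of Cacnb1. Cacnb1 and Cacng1 had r = 0.774 (permutation p = 0.00473, adjusted 0.0248) and Spearman coefficient = 0.776 (permutation p = 0.0055, adjusted 0.0289), with r = 0.843 without those 2 libraries. Cacna1s and Cacnb1 had r = 0.669 (permutation p = 0.00473, adjusted 0.0248) and Spearman coefficient = 0.692 (permutation p = 0.00222, adjusted 0.0155), with r = 0.68 without OE-CTD 4 and OE-WD 4. Among all pairs of the 1241 genes with a mean of at least 100 CPM, 24.3% had an r of at least 0.542, 14.7% of at least 0.669, 7.42% of at least 0.774 and 0.594% of at least 0.927, so values like those of most channel pairs were common among abundant genes. All genes of a library share its scaling and its muscle, and their part in these relations was not tested.

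No pair with an RGK gene passed the adjustment. Rrad had r between -0.15 and 0.20 with the other 6 detected members, with adjusted p-values of at least 0.288 in the exact permutation test, and Spearman coefficients between -0.112 and 0.147. Without CT-CTD 1 and CT-WD 2, the libraries farthest from its median, its r lay between -0.435 (Cacng1) and 0.008 (Rem1), and without OE-CTD 4 and OE-WD 4 between -0.371 (Cacna1s) and 0.484 (Cacna2d1). Gem had an r below 0 with each of the 4 channel members, and none of these pairs passed the adjustment. It had r = -0.679 for Cacna1s (Spearman coefficient = -0.64, permutation p = 0.03 and 0.0231, adjusted 0.0788 and 0.0744) and r = -0.674 for Cacna2d1 (Spearman coefficient = -0.591, permutation p = 0.0299 and 0.0545, adjusted 0.0788 and 0.127). The r values were -0.47 and -0.586 without OE-CTD 3 and OE-CTD 4, the libraries farthest from the median of Gem, and -0.405 and -0.345 without OE-CTD 4 and OE-WD 4. Gem had r = -0.552 with Cacnb1 (Spearman coefficient = -0.653, permutation p = 0.0598 and 0.031, adjusted 0.13 and 0.0814) and r = -0.559 with Cacng1 (Spearman coefficient = -0.516, permutation p = 0.0619 and 0.0847, adjusted 0.13 and 0.178). These r values came to -0.369 and -0.342 without OE-CTD 4 and OE-WD 4. In the OE libraries with the lowest Gem, OE-CTD 4, OE-WD 1 and OE-WD 4, the summed Schwann cell and fibroblast markers were low too. Schwann cell markers were at 118, 152 and 138 CPM there, against 279 to 321 CPM in the other OE libraries. Fibroblast markers were at 609, 671 and 718 CPM there, against 859 to 1513 CPM. In CT-CTD 1 to 3 the Schwann cell sums were 320, 109 and 236 CPM beside Gem at 6.41, 4.48 and 4.45 CPM. In CT-WD 1 to 3 they were 212, 181 and 207 CPM beside Gem at 7.19, 5.27 and 9.34 CPM. The part of these cell types in these relations was not tested. Rem1 had r = -0.625 with Cacna1s and -0.534 with Cacna2d1 (permutation p = 0.077 and 0.155, adjusted 0.147 and 0.25), which came to 0.253 and 0.275 without OE-CTD 4 and OE-WD 4. Its r was -0.119 with Cacnb1, 0.027 with Cacng1 and 0.495 with Gem (permutation p = 0.71, 0.934 and 0.122, adjusted 0.845, 0.934 and 0.213), and 0.459, 0.58 and 0.121 without OE-CTD 4 and OE-WD 4.

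**Figure D4:**
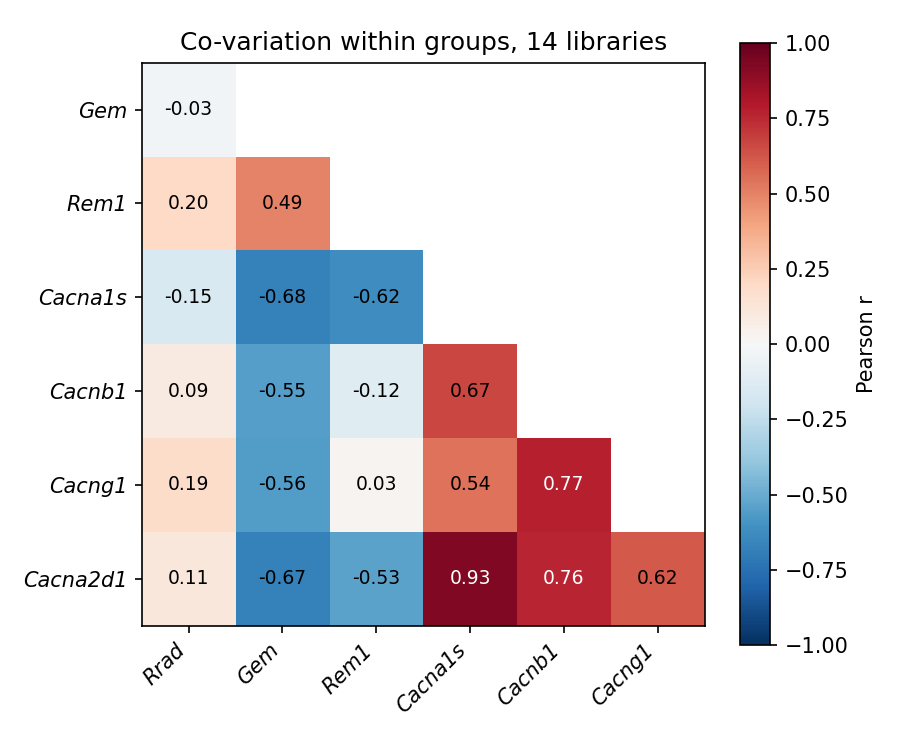
Pearson r between the log2 CPM of pairs of members after removal of the group means, over 14 libraries, with genes on both axes and colour from -1 (blue) to 1 (red). Pairs of channel subunits lie between 0.54 and 0.93, and pairs with Rrad between -0.15 and 0.20.

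Across all 14 libraries, the genes most like Rrad among those with a mean of at least 5 CPM were Kansl2-ps (Pearson r = 0.779), Relt (0.769), Nabp1 (0.748), Prss23 (0.739) and Smad6 (0.733), with Spearman coefficients between 0.53 and 0.745. These values were picked as the highest over all genes, and without CT-CTD 1 and CT-WD 2, the libraries farthest from the median of Rrad, r was between 0.352 and 0.531, so the likeness rests on those libraries. The genes most like Cacna1s were Gsk3b (0.972), Sbf1 (0.971), Rnf123 (0.967), the muscle sodium channel Scn4a (0.966) and the cytoskeletal linker Plec (0.957), with Spearman coefficients between 0.609 and 0.956. Without OE-CTD 4 and OE-WD 4 these r values were between 0.514 and 0.806.

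Other genes of channel assembly, excitation-contraction coupling, binding of RGK proteins and muscle activity were read from lists of 68 genes, of which 59 were tested. In CT-WD against CT-CTD, edgeR called 0 of the 59, with 12 higher and 2 lower at the unadjusted level (2.17% and 0.88% of all genes), and the median log2 fold change was 0.07 against 0.01 over all genes. OE-WD against OE-CTD gave 0 called, with 1 higher and 1 lower at the unadjusted level (0.686% and 0.686% of all genes), with medians of 0.01 and 0.01. In OE-WD against CT-WD 1 was called, lower (0.311% of all genes), with 0 higher and 5 lower at the unadjusted level (3.32% and 2.42% of all genes) and medians of 0.01 and 0.01. In OE-CTD against CT-CTD 2 were called higher and 1 lower (1.18% and 0.725% of all genes), with 10 higher and 2 lower at the unadjusted level (4.94% and 2.18% of all genes) and medians of 0.08 and -0.001. The interaction gave 0 called, with 1 higher and 9 lower at the unadjusted level (1.04% and 1.66% of all genes), with medians of -0.02 and -0.01. No DESeq2 counts were made over these lists. Where genes of these lists are said below to have groups without overlap, the share of all genes without overlap was not counted. The genes named were picked by their p-values, so such a separation is only a description.

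Of 15 other channel subunits tested, 1 was called, lower in OE-CTD than in CT-CTD, where 0.725% of all genes were called lower. Cacna2d4, an alpha2delta subunit known from the retina, was lower in OE-CTD (4.18, 3.53, 3.05 and 2.55 CPM) than in CT-CTD (3.84, 15.4 and 6.87 CPM), with a log2 fold change of -1.37 ± 0.34 (SE, adjusted p = 0.0443 in edgeR). The groups overlapped, CT-CTD 2 was the highest library, and without it the value was -0.68 (adjusted p = 0.312) and not called. The call was also lost without CT-CTD 3, without any of OE-CTD 1 to 4 and without any of OE-WD 1 to 3. It was lost as well without OE-CTD 4 and OE-WD 4 together and with edgeR on the 2 groups alone, but kept with DESeq2 on these groups alone. The adjusted p over all alternatives ran from 0.00057 to 0.312. In OE-WD against CT-WD Cacna2d4 stood at -0.84 (adjusted p = 0.229). The T-type pore Cacna1g had a log2 fold change of 0.94 in OE-CTD against CT-CTD with groups that did not overlap (adjusted p = 0.112), and Cacna1i, at 1.02 CPM or less in every library, had -2.28 in OE-WD against CT-WD (adjusted p = 0.13). Cacnb3 stood at 0.58 in OE-CTD against CT-CTD (adjusted p = 0.265), Cacng7 at -0.42 in CT-WD against CT-CTD (adjusted p = 0.667), and the L-type pore Cacna1d at 0.96 in OE-CTD against CT-CTD (adjusted p = 0.506).

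Of 11 genes that couple the channel to calcium release in the triad, edgeR called 0 in each of the 5 comparisons (between 0% and 1.91% of all genes). At the unadjusted level there was 1 in CT-WD against CT-CTD (3.05% of all genes) and 1 in OE-CTD against CT-CTD (7.12% of all genes), Stac2 in both. Triadin (Trdn), which links Ryr1 to calsequestrin, had a log2 fold change of -0.32 in OE-CTD against CT-CTD (adjusted p = 0.0791). It was named for the lowest p-value of its list in that comparison, and its 4 OE-CTD libraries lay below its 3 CT-CTD libraries. Junctophilin 2 (Jph2), which ties the membranes of the triad together, stood at 0.45 in OE-WD against CT-WD (adjusted p = 0.13), and Stac2, an adaptor of the channel present at 1.12 CPM or less in every library, at 1.14 in CT-WD against CT-CTD (adjusted p = 0.604) and in OE-CTD against CT-CTD (adjusted p = 0.193). Ryr1 followed Cacna1s in its high libraries, with 6682 and 6577 CPM in OE-CTD 4 and OE-WD 4 against at most 5500 CPM in the others.

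Denervation response genes, which rise in muscle that has lost its nerve, gave 1 call among 10 tested, lower in OE-WD than in CT-WD, where 0.311% of all genes were called lower. Gadd45a, a growth arrest gene, was at 12.1, 8, 9.19 and 6.71 CPM in OE-WD and at 22.4, 14.2 and 24.9 CPM in CT-WD, without overlap, with a log2 fold change of -1.19 ± 0.24 (SE, adjusted p = 0.0345 in edgeR). The call was lost without CT-WD 3, without OE-CTD 2 or 3 and without OE-WD 2, 3 or 4. It was lost as well without OE-CTD 4 and OE-WD 4 together and with edgeR on the 2 groups alone, but kept with DESeq2 on these groups alone. Adjusted p-values ran from 7.28e-05 to 0.504 over all alternatives, and the log2 fold change lay between -1.39 and -1.03 as single libraries were left out. Myog, a myogenic transcription factor, was at 76.6 CPM in CT-WD 3 and at most 18.9 CPM elsewhere, and its log2 fold change of 2.22 in CT-WD against CT-CTD was not called (adjusted p = 0.394). Myh8, a perinatal myosin, stood at -1.51 in OE-CTD against CT-CTD (adjusted p = 0.0761).

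Immediate early genes, which are transcribed within minutes of a stimulus, gave 2 calls among 10 tested, both higher in OE-CTD than in CT-CTD, where 1.18% of all genes were called higher. Junb, a subunit of the AP-1 transcription factor, was at 46.4, 39.8, 60.5 and 29.1 CPM in OE-CTD and at 18.9, 14.9 and 10.9 CPM in CT-CTD, a log2 fold change of 1.56 ± 0.26 (SE, adjusted p = 0.00704 in edgeR). Without CT-CTD 3 the call of Junb was lost (adjusted p = 0.0518), and the adjusted p over all alternatives ran from 9.76e-10 to 0.0518. Ier2 was at 24.5, 19.0, 17.2 and 11.6 CPM in OE-CTD and at 8.98, 7.82 and 6.55 CPM in CT-CTD, a log2 fold change of 1.22 ± 0.29 (SE, adjusted p = 0.0386), and its call was lost without any of CT-CTD 1 to 3, OE-CTD 1 to 3 or OE-WD 3 (adjusted p from 4.01e-06 to 0.174 over all alternatives). For both, all 4 OE-CTD libraries lay above all 3 CT-CTD libraries, and the share of all genes separated in this way was not counted. At the unadjusted level 7 of the 10 were higher in OE-CTD than in CT-CTD (4.94% of all genes), and 7 were lower in the interaction (1.66% of all genes). In CT-WD against CT-CTD 8 were higher at that level (2.17% of all genes), and Nr4a3 stood at 2.01 (adjusted p = 0.381). These 3 comparisons share the same 3 CT-CTD libraries and are not separate results. Mean Junb, for example, was 14.9 CPM in CT-CTD, 29.8 in CT-WD, 44 in OE-CTD and 33.8 in OE-WD. In OE-WD against OE-CTD 0 of the 10 passed that level (1.37% of all genes), and in OE-WD against CT-WD 1 did, lower (2.42% of all genes). Atf3 was at 307 CPM in CT-WD 3 and at most 31.9 CPM elsewhere, and stood at -2.45 in OE-WD against CT-WD (adjusted p = 0.101).

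The libraries held skeletal muscle by their markers. The 10 skeletal muscle markers, with Myh4 the most abundant, summed to between 129715 and 186228 CPM, and the highest sums were those of OE-WD 4 and OE-CTD 4 (186228 and 182165 CPM). Slow fibre markers summed to between 3999 and 6467 CPM against 107032 to 151516 CPM for fast fibre markers. Of 5 cardiac markers 1 was tested, Myh6, and between 0 and 2 of the 5 had 0 counts in a library.

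Markers of other cell types were read in the same way, and edgeR called 0 of them in the genotype comparisons described here. The 8 endothelial markers, Cdh5 the most abundant and none at 0 counts, summed to 307, 313 and 334 CPM in CT-CTD 1 to 3, 379, 315 and 327 CPM in CT-WD 1 to 3, 404, 404, 376 and 385 CPM in the OE-CTD libraries and 411, 437, 425 and 446 CPM in the OE-WD libraries (replicates 1 to 4). All 8 had a log2 fold change above 0 in OE-CTD against CT-CTD and 7 of 8 in OE-WD against CT-WD, 0 of them called. Cdh5, whose promoter drives the transactivator, stood at 0.46 ± 0.09 (SE) in OE-WD against CT-WD (adjusted p = 0.0322, under 1.5-fold), and Tek, an endothelial receptor, at 0.52 ± 0.11 in OE-CTD against CT-CTD (adjusted p = 0.0232, under 1.5-fold). The 5 fibroblast markers, Dcn the most abundant and none at 0 counts, summed to 413, 386 and 302 CPM in CT-CTD 1 to 3, 941, 337 and 330 CPM in CT-WD 1 to 3, 887, 1042, 979 and 609 CPM in the OE-CTD libraries and 671, 1513, 859 and 718 CPM in the OE-WD libraries (replicates 1 to 4). CT-WD 1 was the CT library with fibroblast markers at the level of EC-Myc OE. The 5 macrophage markers, Csf1r the most abundant and none at 0 counts, summed to 32.2, 20.5 and 15.6 CPM in CT-CTD, 49.6, 22.1 and 19.9 CPM in CT-WD, 27.7, 38.1, 49.7 and 35.5 CPM in OE-CTD and 29.9, 55.5, 31.3 and 38.5 CPM in OE-WD. In OE-CTD against CT-CTD 5 of 5 fibroblast and 4 of 5 macrophage markers were higher at the unadjusted level (4.94% of all genes), with median log2 fold changes of 0.95 and 0.87. In OE-WD against CT-WD 1 of 5 and 0 of 5 were higher at that level (3.32% of all genes), with medians of 0.58 and 0.28. The 4 keratinocyte markers, Krt5 the most abundant, summed to 37.7, 4.31 and 9.33 CPM in CT-CTD, 74.2, 8.12 and 8.22 CPM in CT-WD, 15.2, 25.3, 29.1 and 2.40 CPM in OE-CTD and 12.0, 55.5, 89.5 and 27.7 CPM in OE-WD, with 1 of them at 0 counts in CT-CTD 2 and 3 in OE-CTD 4. In OE-WD against OE-CTD all 4 had a log2 fold change above 0 (median 1.33), with 0 called and 1 higher at the unadjusted level (0.686% of all genes). The 4 Schwann cell markers summed to 320, 109 and 236 CPM in CT-CTD and 212, 181 and 207 CPM in CT-WD. In EC-Myc OE they summed to 297, 279, 321 and 118 CPM in OE-CTD and 152, 299, 321 and 138 CPM in OE-WD. The 5 adipocyte markers, Fabp4 the most abundant, summed lowest in OE-CTD 4 (156 CPM) and OE-WD 4 (207 CPM). Their median log2 fold change was -0.875 in CT-WD against CT-CTD and 0.70 in OE-WD against CT-WD, with 0 called. In the latter 4 of 5 were above 0, and Fabp4, which weighs most in the sum, stood at -0.33. Smooth muscle and red blood cell markers were also read. The part of these cell types in the values of the members was not tested.

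RefSeq promoter sequences of GRCm38.p6 were found for 5 of the 8 members, Rem1, Rem2, Cacna1s, Cacnb1 and Cacna2d1, from 250 bases before to 50 bases after the start of transcription. Those of the channel subunits that varied together are shown, because the transgene encodes a factor that binds the E-box CACGTG and muscle factors bind the E-box CAGCTG. Both motifs read the same on both strands and were searched as these letters. CAGCTG was present in 16.3% and CACGTG in 7.15% of 32851 promoters of the same length. Cacna1s held 1 CAGCTG, in capitals, and no CACGTG, and neither was found in the windows of Cacnb1 (the upstream start of 2) and Cacna2d1. The windows are chr1:136052561-136052860 (plus strand, 63.0% G or C), chr11:98022578-98022877 (minus strand, 73.7%) and chr5:15934441-15934740 (plus strand, 80.0%). A match is a description of letters and says nothing of binding.
Cacna1s: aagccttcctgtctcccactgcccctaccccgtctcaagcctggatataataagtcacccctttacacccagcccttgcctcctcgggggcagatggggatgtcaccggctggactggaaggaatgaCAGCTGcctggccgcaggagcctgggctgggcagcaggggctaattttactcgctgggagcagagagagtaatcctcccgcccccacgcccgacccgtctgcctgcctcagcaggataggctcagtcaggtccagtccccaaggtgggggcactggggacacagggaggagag
Cacnb1: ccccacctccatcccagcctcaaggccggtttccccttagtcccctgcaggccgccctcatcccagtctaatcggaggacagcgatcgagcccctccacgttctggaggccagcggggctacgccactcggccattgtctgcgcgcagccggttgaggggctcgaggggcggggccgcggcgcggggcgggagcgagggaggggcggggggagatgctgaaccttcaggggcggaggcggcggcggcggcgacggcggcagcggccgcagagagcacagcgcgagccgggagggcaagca
Cacna2d1: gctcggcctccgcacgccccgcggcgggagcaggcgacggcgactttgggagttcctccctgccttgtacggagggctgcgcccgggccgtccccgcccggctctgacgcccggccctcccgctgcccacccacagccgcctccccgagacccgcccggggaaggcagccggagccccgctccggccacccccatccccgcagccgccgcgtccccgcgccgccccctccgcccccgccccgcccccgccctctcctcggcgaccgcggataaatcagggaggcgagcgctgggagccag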

How the data were processed

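The authors deposited counts per gene, made with HISAT2 2.0.5 and featureCounts 1.5.0-p3 on mm10, and FPKM, in which the authors scaled counts to gene length and to a library total (79.9% to 98.0% of the summed counts). The counts were tested here with edgeR 4.0.16 in R 4.3.3 (TMM normalization, filterByExpr, quasi-likelihood, a model of 4 groups), with Benjamini-Hochberg adjustment over all 15458 genes within each comparison. The filter removed 0.0467% to 0.0694% of a library's counts. The coefficient of variation between replicates was 17%. Log2 CPM used a prior count of 2. Alternatives were DESeq2 1.42.0, RLE normalization, no filter, fits of 2 groups alone, a replicate block and leaving out libraries. Genes with the members' names were taken, and other genes are named where they were called or had the lowest p-value of their list in a comparison, or where they describe a library or a cell type. The members and lists were chosen with earlier results of these data known. Libraries of CT-WD and CT-CTD with the same number deviated together (correlations 0.385, 0.123 and 0.203), all over 0.1, and this pairing comes from the data only. Correlations were computed in Python 3.11.15 with numpy 2.4.6, figures with matplotlib 3.10.9. The code was tested on simulated data.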

Additional observations from a re-analysis of the deposited data

Results flagged for a closer look

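In the OE groups, which have 4 libraries each, single libraries far from the others of their group by Dixon's test were Cacna1s in OE-CTD 4 (1392 CPM) and in OE-WD 4 (1352 CPM), Cacnb1 in OE-WD 4 (220 CPM), the summed skeletal muscle markers in OE-CTD 4 (182165 CPM) and the summed fast fibre markers in OE-CTD 4 (145716 CPM). Of 46 groups of values examined, all of OE libraries, 5 held such a library. Chance alone marks about 1 in 20 groups where values are normal and independent. These groups reuse the same libraries, and the skeletal muscle and fast fibre lists share markers such as Myh4, so no excess over chance is read. All 5 are in OE-CTD 4 and OE-WD 4, which also had the highest mitochondrial shares (14.9% and 14.5%). Tissue piece, fibre content, RNA quality, library preparation and the animal cannot be told apart in these libraries, and none was tested. OE-CTD 4 also bears another sample number than OE-CTD 1 to 3, and the meaning of that number is not stated. The CT groups, with 3 libraries each, were not examined in this way. There CT-WD 1 lay far from CT-WD 2 and CT-WD 3 in Cacnb1 (141 against 193 and 192 CPM), in the summed fibroblast markers (941 against 337 and 330 CPM) and in the summed keratinocyte markers (74.2 against 8.12 and 8.22 CPM).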

How the results depend on the processing

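Of 721 repeats of the 35 log2 fold changes of members under alternatives, 673 kept their sign, 0 reversed a difference that exceeded its standard error, and 2 gave a call, both of them for Rrad in OE-WD against OE-CTD. Leaving out OE-CTD 4 and OE-WD 4 together was an alternative chosen after seeing the data.

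Members called in OE-WD against OE-CTD were 0 with edgeR, 1 with the replicate block and 1 with DESeq2 on the 2 groups alone. The log2 fold change of Rrad in OE-WD against OE-CTD was -0.66 with the block (adjusted p = 0.0455) and ran from -0.72 to -0.55 as single libraries were left out. The members stayed at 0 under every other alternative.

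The genes called in CT-WD against CT-CTD were 0, and 26 with DESeq2, 88 without the filter, 1 with the block, 22 with DESeq2 on the 2 groups alone and 0 to 41 as single libraries were left out. The interaction gave 0, and 3 with DESeq2, 29 without the filter, 1 with the block and 0 to 1 with libraries left out. The genes called in OE-CTD against CT-CTD were 295, and 488 with DESeq2, 570 without the filter, 522 with the block, 634 with DESeq2 on the 2 groups alone and 64 to 440 with libraries left out. The genes called in OE-WD against CT-WD were 87, and 288 with DESeq2, 401 without the filter, 4 in the 2 groups alone, 0 with the block, 192 with DESeq2 on the 2 groups alone, 4 without OE-CTD 4 and OE-WD 4, and 4 to 905 with single libraries left out. The genes called in OE-WD against OE-CTD were 1, and 5 without the filter, 15 with the block, 10 with DESeq2 on the 2 groups alone, 0 without OE-CTD 4 and OE-WD 4, and 0 to 2 with single libraries left out. The cause was not tested.

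Libraries with the same number correlated at 0.071, 0.138, 0.142 and 0.338 between OE-WD and OE-CTD, at -0.23, -0.158 and -0.065 between OE-WD and CT-WD, and at 0.046, -0.113 and -0.122 between OE-CTD and CT-CTD. In none of these did every pair exceed 0.1, the limit used for pairing, although all 4 between OE-WD and OE-CTD were positive and 3 of them exceeded it. The block also ended the calls of Cacna2d4 and Gadd45a and kept those of Junb and Ier2. Depth limits Rem2, with 0 counts, and the lowly expressed subunits.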

Other observations

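CT-WD 3 held the highest Atf3 (307 CPM) and Myog (76.6 CPM) of the series, and CT-WD 1 the highest sum of fibroblast markers among CT libraries (941 CPM). In CT-WD against CT-CTD the immediate early genes had a median log2 fold change of 1.31, with 0 of 10 called, and the interaction had a median of -1.39. Both hold the same CT-CTD libraries. No cause was tested.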
